A study of Mus musculus with 6 samples.

Results

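Galectins are lectins that bind sugars ending in galactose, and 5 of their genes (Lgals1, Lgals3, Lgals7, Lgals8 and Lgals9) are described here together with Lgals3bp, a secreted glycoprotein that galectins bind. These 6 genes were taken by symbol from the 41255 genes listed for Ba/F3 cells expressing WT or R98S mutant RPL10. They were selected on what these same libraries had shown between R98S and WT cells, in particular a large difference in Lgals7. Their differences between the genotypes are therefore given as a description with no p-value, and nothing is read from their calls.

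Ba/F3 is a mouse lymphoid cell line that needs interleukin-3 to grow, and RPL10 is a protein of the large ribosomal subunit in which the R98S substitution recurs in T-cell acute lymphoblastic leukemia. The comparison asks how mRNA levels differ between cells with the mutant and the normal protein. All 6 cultures carried a short hairpin RNA against endogenous mouse Rpl10 and a retrovirally delivered human RPL10 cDNA, which encoded the normal protein across WT clones 28, 29 and 36, against the R98S protein in R98S clones 11, 13 and 35. Each culture descended from 1 cell, was chosen for a good knockdown, received 100 µg/ml of cycloheximide (an inhibitor of translation elongation) for 5 min before lysis, and gave 1 library. A difference between the groups is therefore a difference between 3 clones and 3 clones, and the spread quoted below is the spread between clones.

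Galectins lack a signal peptide, work in the cytosol and nucleus, and leave the cell by an unconventional route to crosslink glycoproteins at its surface. Lgals1 and Lgals7 encode proteins with a single carbohydrate recognition domain that pair up, Lgals8 and Lgals9 encode proteins with a tandem of different domains, and Lgals3 encodes the chimera type, with a domain joined to a flexible tail. In blood cells galectins are known for effects on adhesion and survival through glycoproteins such as CD45, whereas Lgals7 is best known from stratified epithelia.

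The libraries held between 21786776 and 24204991 reads assigned to genes, and 3 reads, the floor below which a gene was not told apart from 0, equalled a normalized count (reads divided by the size factor of the library) of 2.78 to 3.22. Rpl10, the target of the knockdown, stood at normalized counts of 2853, 3156 and 1900 across WT clones 28, 29 and 36, against 3028, 1883 and 2617 across R98S clones 11, 13 and 35, with no difference past the threshold (limma adjusted p = 0.871). How many of these reads came from the human cDNA is not known. A principal component analysis separated the genotypes on the first component (61.2% of the variance), and WT clone 36 and R98S clone 13 stood apart from the rest of their groups on the second (13%). Among markers of the B lineage, Cd79a was present in every library at a normalized count of 996 to 1507, while Pax5, a transcription factor gene that defines the lineage, had at most 2 reads in any library. Of the 8 markers 3 were tested, and besides Ptprc, described below, Cd79b was called (258 ± 128 in WT and 572 ± 166 in R98S clones, limma adjusted p = 0.0617), a call lost without WT clone 29, WT clone 36, R98S clone 11 or R98S clone 13 (limma adjusted p = 0.114 to 0.175).

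The sequence upstream of the annotated start is shown for the 2 members that were higher in R98S clones by the widest margin, Lgals7 and Lgals3, and for the member that was lower by the widest margin among those tested, Lgals8. Each is the sequence of the 250 bases before the start in RefSeq on GRCm38.p6, read 5′ to 3′ on the strand of the gene. A GC box (GGGCGG, or its reverse complement CCGCCC where it lies on the other strand) is in capitals.
Lgals7, chr7:28864136-28864385, plus strand: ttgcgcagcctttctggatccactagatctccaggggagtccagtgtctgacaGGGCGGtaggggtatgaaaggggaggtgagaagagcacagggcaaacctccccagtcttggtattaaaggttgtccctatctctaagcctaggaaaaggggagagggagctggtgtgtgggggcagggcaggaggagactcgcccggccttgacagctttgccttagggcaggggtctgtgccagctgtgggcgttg
Lgals3, chr14:47373610-47373859, plus strand: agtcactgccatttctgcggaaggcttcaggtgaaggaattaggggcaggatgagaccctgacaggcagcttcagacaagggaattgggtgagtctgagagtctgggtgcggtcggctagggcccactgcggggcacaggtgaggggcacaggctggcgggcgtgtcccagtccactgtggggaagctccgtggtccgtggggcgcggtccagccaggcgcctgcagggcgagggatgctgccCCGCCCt
Lgals8, chr13:12461739-12461988, minus strand: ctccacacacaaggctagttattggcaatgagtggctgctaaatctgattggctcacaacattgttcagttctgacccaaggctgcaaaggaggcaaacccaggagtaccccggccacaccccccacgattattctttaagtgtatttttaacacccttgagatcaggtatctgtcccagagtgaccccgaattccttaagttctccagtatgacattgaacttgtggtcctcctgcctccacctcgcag
These RefSeq starts lie inside the gene spans of GENCODE given below, which begin further upstream. In Lgals7 the GC box lay 197 to 192 bases before the start, and in Lgals3 it lay on the opposite strand, 7 to 2 bases before it. Lgals8 held no match, and neither did Lgals9 or Lgals3bp. The GC content was 58.8% for Lgals7, 66.0% for Lgals3 and 49.2% for Lgals8. Both strands were also searched for the TATA box TATAAA, for the AP-1 motif TGANTCA, for the GATA motif GATAA and for the STAT5 motif TTCNNNGAA, none of which was present in the 5 members with an entry. Of 32851 RefSeq promoters of this length, 32.7% held the GC box, 12.4% the TATA box, 6.75% the AP-1 motif, 22.6% the GATA motif and 7.02% the STAT5 motif. The motifs overlap one another in none of the printed sequences, and a match describes the letters and not a bound site. Of the 6 members, 5 matched an entry and Lgals1 did not.

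Over all 6 genes, Lgals7 and Lgals3 were higher in R98S clones, Lgals1 and Lgals8 were lower, and the groups overlapped for Lgals9 and Lgals3bp. A gene was tested when its mean normalized count over the libraries was at least 10, which 5 of the 6 members reached, and it was called when limma gave a Benjamini-Hochberg adjusted p under 0.1. Of these 5, 4 were called, 2 higher and 2 lower in R98S clones. The background was high: of all 11550 genes tested, 23.9% were called, 10.7% higher and 13.1% lower, and 37.3% had groups whose values did not overlap. The members were chosen on this contrast, so nothing is read from their count against that background.

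Lgals7, a prototype galectin of epithelia, lies on chromosome 7 at 28863853 to 28866284 (GRCm38, plus strand). It had 0, 0 and 2 reads across WT clones 28, 29 and 36, against 167, 218 and 185 reads across R98S clones 11, 13 and 35. As normalized counts, the R98S clones stood at 157, 222 and 171, with a mean of 183 ± 34.6 (SD, n = 3). All WT clones were under the floor and all R98S clones far above it.

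Against a floor of 3 reads in each WT library, a mean normalized count of 3.10, Lgals7 was at least 59.2-fold higher in R98S clones. The lowest R98S clone was 48.6-fold above the highest of these floors. The fitted log2 fold change of 6.98 (SE 0.50) depends on the constant added before the logarithm and is no bound. In bulk RNA, more expressing cells and more RNA per cell cannot be told apart, here or for any level below. An antisense gene, Gm10648, overlaps the locus on the other strand without sharing an exon base in GENCODE.

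Markers of keratinocytes and epithelium, where Lgals7 is usually found, were examined beside it. Krt5, Krt14 and Epcam, keratin and adhesion genes that define these cells, had at most 2 reads in any library. Cdh1, also on the list, had at most 7 reads in any library. Its normalized counts were 0, 1.07 and 0 across WT clones, against 3.75, 0 and 6.48 across R98S clones 11, 13 and 35. Of the 5 markers only Trp63 was tested. It was present in every library, at 59.9 ± 16.8 in WT and 90.6 ± 34.0 in R98S clones, and was not called (limma adjusted p = 0.293). The summed normalized count of the list was 47.0 to 80.9 in WT and 61.2 to 131 in R98S clones, so the groups overlapped.

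Lgals3, the chimera galectin, lies on chromosome 14 at 47367751 to 47386160 (plus strand). Its normalized counts were 35.8, 33.3 and 49.0 across WT clones 28, 29 and 36, against 575, 755 and 362 across R98S clones 11, 13 and 35. The lowest R98S clone thus stood well above the highest WT clone. The mean was 39.4 ± 8.44 in the WT and 564 ± 197 in the R98S clones (SD, n = 3 each), 14.3-fold higher, with a log2 fold change of 3.76 (SE 0.30). The R98S clones varied more among themselves (coefficient of variation 34.9%) than the WT clones (21.4%), and R98S clone 13 was the highest for Lgals3 as for Lgals7.

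Lgals3 is also an antigen of macrophages, and markers of macrophages and monocytes were examined beside it. Emr1, which encodes a surface antigen used to define macrophages, stood at normalized counts of 9800, 8967 and 12409 across WT clones 28, 29 and 36, against 687, 2880 and 1832 across R98S clones 11, 13 and 35 (log2 fold change −2.74, limma adjusted p = 0.00834). Emr1 was thus lower in every R98S clone than in every WT clone. Of the 6 markers, 4 were tested, and Emr1 and Lyz2 were called, both lower. Lyz2 had at most 43 reads in any library. Itgam was not tested, at normalized counts of 11.3, 15.0 and 13.0 across WT clones, against 0, 4.08 and 0 across R98S clones. Its groups did not overlap, with at most 14 reads in any library. Cd68 and Cd14 were not called (limma adjusted p = 0.454 and 0.292), and the groups overlapped for both. The summed normalized count was 9259 to 12651 in WT and 777 to 3144 in R98S clones, most of it Emr1, and Csf1r, the receptor that defines the lineage, had at most 7 reads in any library. Their part in the Lgals3 difference was not tested.

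**Figure D1:**
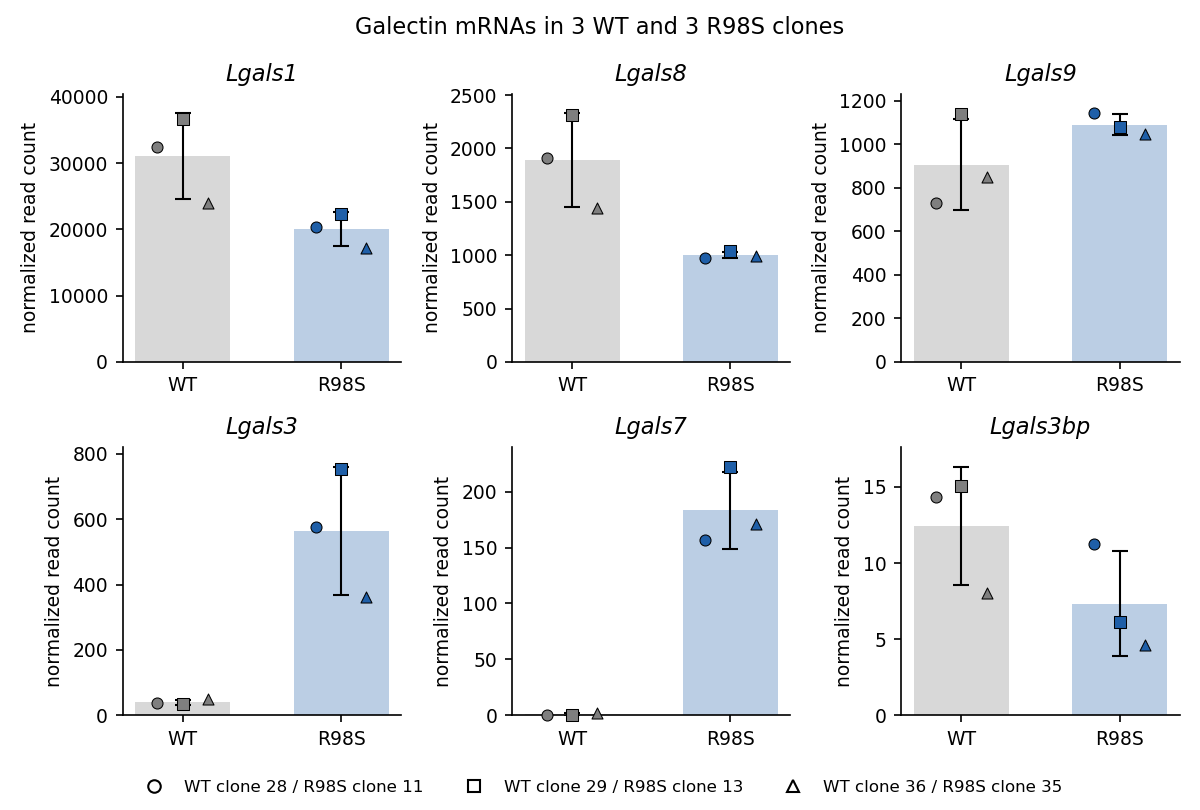
Normalized read count (vertical axis, linear, from 0) of each of the 6 genes in WT clones (grey) and R98S clones (blue). Points are single clones, bars are means and whiskers are the SD over 3 clones. Lgals3 and Lgals7 were near the bottom of their axes in every WT clone, Lgals1 and Lgals8 were lower in every R98S clone, and the groups overlapped for Lgals9 and Lgals3bp.

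Lgals1, the second prototype galectin and a binder of CD45 on lymphoid cells, lies on chromosome 15 at 78926725 to 78930465 (plus strand). Its normalized counts were 32482, 36679 and 24026 across WT clones 28, 29 and 36, against 20431, 22328 and 17252 across R98S clones 11, 13 and 35. Every R98S clone was lower than every WT clone, but WT clone 36 and R98S clone 13 were close to each other. The mean was 31062 ± 6444.5 in the WT and 20004 ± 2564.6 in the R98S clones (SD, n = 3 each), 1.55-fold higher in WT clones, with a log2 fold change of −0.62 (SE 0.18). Without 1 clone, this log2 fold change lay between −0.80 and −0.49. Lgals1 has processed pseudogenes, of which Gm9612 was listed at a normalized count of at most 0.938, and the authors' filter on mapping quality could have removed Lgals1 reads that also fit such copies.

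Lgals8, a tandem-repeat galectin that binds glycans exposed on damaged vesicles, lies on chromosome 13 at 12439415 to 12464944 (minus strand). Its normalized counts were 1910, 2318 and 1439 across WT clones 28, 29 and 36, against 973, 1037 and 996 across R98S clones 11, 13 and 35. All R98S clones were below all WT clones. The mean was 1889 ± 440 in the WT and 1002 ± 32.5 in the R98S clones (SD, n = 3 each), 1.89-fold higher in WT clones, with a log2 fold change of −0.89 (SE 0.17).

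The 3 R98S clones were closer to one another for Lgals8 (coefficient of variation 3.24%) than the 3 WT clones (23.3%). Lgals8 shares 155 exon bases with Heatr1 on the opposite strand, and whether counting used the strand of the reads is not stated in the sources used here. Heatr1, a ribosome biogenesis gene, had a log2 fold change of the opposite sign (0.33) and was not called (limma adjusted p = 0.223).

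Lgals9, the other tandem-repeat galectin and a ligand of TIM-3, lies on chromosome 11 at 78962974 to 78984946 (minus strand). Its normalized counts were 732, 1140 and 851 across WT clones 28, 29 and 36, against 1143, 1082 and 1050 across R98S clones 11, 13 and 35. WT clone 29 lay within the range of the R98S clones, and the other two WT clones lay below it. The means were 908 ± 210 and 1092 ± 47.1 (SD, n = 3 each), a log2 fold change of 0.29 (SE 0.17). As for Lgals8, the R98S clones were tighter (coefficient of variation 4.32%) than the WT clones (23.1%).

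Lgals3bp, the secreted binding protein, lies on chromosome 11 at 118392751 to 118402092 (minus strand), on the same chromosome as Lgals9. Its normalized counts were 14.3, 15.0 and 8.01 across WT clones 28, 29 and 36, against 11.3, 6.12 and 4.63 across R98S clones 11, 13 and 35. The groups overlapped, since R98S clone 11 exceeded WT clone 36. The means were 12.5 ± 3.88 and 7.34 ± 3.48 (SD, n = 3 each), and the overall mean of 9.90 kept this gene just under the level required for testing.

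To compare levels between genes, normalized counts were divided by the length of the merged exons in GENCODE M21. Per kb of exon, Lgals1 was the highest member in both genotypes, at 34399 ± 7137 in WT and 22153 ± 2840 in R98S clones. In WT clones Lgals8 (512 ± 119) and Lgals9 (425 ± 98.2) followed per kb, with ranges that overlapped. Lgals3 (21.2 ± 4.54), Lgals3bp (4.38 ± 1.36) and Lgals7 (0.720 ± 1.25) came last. The range of Lgals3 did not overlap those of Lgals3bp and Lgals7. Lgals7 was under the floor of 3 reads in every WT clone, so its place below Lgals3bp was not resolved.

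The order per kb was different in R98S clones. Lgals9 was second, at 511 ± 22.0, and its range of 491 to 535 did not overlap that of any other member. Lgals3 (304 ± 106, range 195 to 406) overlapped both Lgals8 (272 ± 8.80, range 264 to 281) and Lgals7 (198 ± 37.3, range 169 to 240), while Lgals8 and Lgals7 did not overlap each other. Lgals3bp was the lowest member in R98S clones, at 2.58 ± 1.22 per kb.

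**Figure D2:**
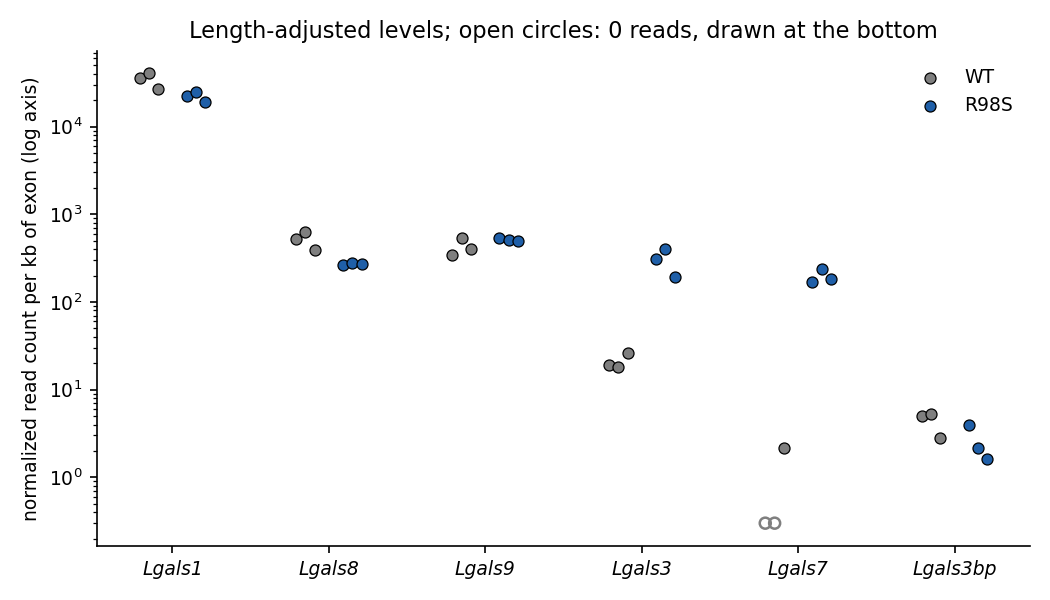
Normalized read count per kb of exon (vertical axis, logarithmic) for the 6 genes, with WT clones in grey and R98S clones in blue; open circles mark the WT clones with 0 reads of Lgals7, drawn at the bottom of the axis. Lgals1 lies far above the others in both genotypes, and in R98S clones Lgals3 overlaps Lgals8 and Lgals7, with Lgals9 above all of these and Lgals7 below Lgals8.

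Summed over the 5 galectins, the level per kb was 35358 ± 7303 in WT and 23436 ± 2985 in R98S clones (SD, n = 3 each). Lgals1 made up 97.3% ± 0.306 of that sum in WT and 94.5% ± 0.145 in R98S clones. The sum was lower in every R98S clone (20246 to 26161) than in every WT clone (27424 to 41799). The share of Lgals3 was 0.0638% ± 0.0285 in WT and 1.27% ± 0.297 in R98S clones, and that of Lgals7 was 0.00262% ± 0.00455 and 0.846% ± 0.120.

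Ratios between members within a library do not depend on the size factor. The ratio of Lgals8 to Lgals9, both tandem-repeat galectins, was 1.51, 1.18 and 0.980 per kb across WT clones 28, 29 and 36, against 0.493, 0.555 and 0.549 across R98S clones 11, 13 and 35. In each R98S clone Lgals9 therefore exceeded Lgals8, and in 2 of 3 WT clones the reverse held. The ratio of Lgals1 to Lgals3 per kb was 1865, 2265 and 1008 in WT and 73.1, 60.8 and 98.1 in R98S clones, with no overlap. The ratio of Lgals8 to Lgals3 per kb was 26.8, 35.1 and 14.8 in WT and 0.852, 0.692 and 1.39 in R98S clones.

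Of the 6 other genes of the galectin fold, 5 were listed. Lgals2, Lgals12 and Grifin had at most 3 reads in any library. Lgals4, a tandem-repeat galectin of the gut and the nearest listed gene on the 5′ side of Lgals7, with starts 29999 bases apart, stood at normalized counts of 20.5, 24.7 and 25.0 across WT clones 28, 29 and 36, against 17.8, 15.3 and 27.8 across R98S clones 11, 13 and 35. The groups overlapped for Lgals4, and it was not called (limma adjusted p = 0.679), next to the at least 59.2-fold difference of Lgals7. Lgalsl, a galectin-related gene, was lower in R98S clones (1012 ± 186 against 569 ± 234, log2 fold change −0.89, SE 0.28, limma adjusted p = 0.0705), a call lost without WT clone 28, WT clone 29, R98S clone 11 or R98S clone 35 (limma adjusted p = 0.167 to 0.187).

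The genes around the other members were examined in the same way, taking the 5 nearest listed genes on each side. Of these 60 neighbours 34 were tested, and 5 were called, 3 higher and 2 lower. Over all tested genes, 23.9% were called, 10.7% higher and 13.1% lower. The calls named below describe single genes and say nothing about the loci. None of the 8 tested neighbours of Lgals3 was called by limma, with 1 at an unadjusted p under 0.05, 0 called by edgeR and 1 by DESeq2. Among the 8 tested neighbours of Lgals7 only Rinl was called, by 1.17 on the log2 scale (limma adjusted p = 0.0582), and it did not pass without any one of the R98S clones (limma adjusted p = 0.102 to 0.151). Next to Lgals1, Nol12, a nucleolar protein gene whose start lies 8208 bases away, was higher (log2 fold change 1.25, limma adjusted p = 0.000468) and Gga1 was lower (log2 fold change −0.63, limma adjusted p = 0.0200). Around Lgals8, Mtr was higher (log2 fold change 0.41) and Ero1lb lower (log2 fold change −0.62), and both calls were lost without WT clone 28, WT clone 29 or R98S clone 11 (limma adjusted p = 0.102 to 0.138). Neither the 3 tested neighbours of Lgals9 (1 at an unadjusted p under 0.05, 0 called by edgeR and 1 by DESeq2) nor the 4 of Lgals3bp (0 by each of these) held a limma call.

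**Figure D3:**
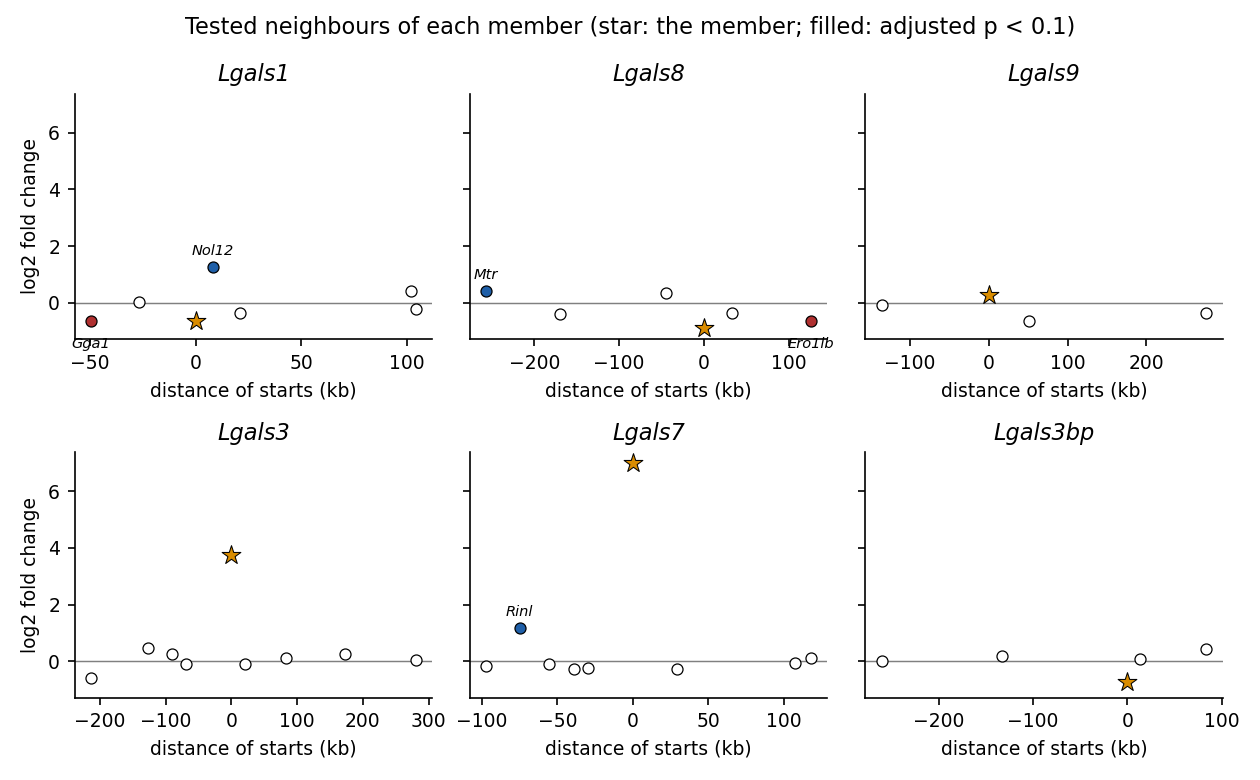
Log2 fold change between R98S and WT clones (vertical axis) of the tested neighbours of each member against the distance between gene starts in kb (horizontal axis, negative towards lower coordinates). Stars are the members, and filled points are neighbours called with a limma adjusted p under 0.1. The stars of Lgals3 and Lgals7 lie well above all their neighbours.

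The profiles most like Lgals7 over the 6 libraries, by Pearson's r of log2(normalized count + 1), were those of Apobec3 (0.998), 9030624J02Rik (0.998), Ptprcap (0.997), Gpr183 (0.997) and Sumo2 (0.996). Of these, Ptprcap, which encodes a CD45-associated protein, had a mean normalized count of 8.56 in WT and 645 in R98S clones, and Gpr183, an oxysterol receptor gene, had 12.3 and 139. For Lgals3 they were Tnk1 (0.997), Iqcg (0.996), Osbpl5 (0.996), Crebzf (0.996) and Mettl16 (0.995), and Tnk1, a kinase gene, had a mean of 0.334 in the WT clones, under the floor, and of 24.7 in the R98S clones. With 6 libraries in 2 groups such values mostly reflect the gap between the groups, and 719 tested genes exceeded 0.9 with Lgals7 and 692 with Lgals3.

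Glycoproteins that galectins bind, or that are known to bind them, formed a list of 20 genes. Of these, 16 were tested, 3 were called higher and 6 lower, beside 10.7% and 13.1% of all tested genes. The median log2 fold change of the list was −0.20, beside −0.01 over all tested genes. Ptprc, which encodes CD45, a counter-receptor of Lgals1, dropped to 4471 ± 1148 in the R98S clones, against 11217 ± 2636 in the WT clones (SD, n = 3 each; change of −1.33 on the log2 scale, SE 0.22, limma adjusted p = 0.00894). P4hb, the disulfide isomerase that binds Lgals9 at the cell surface and the most abundant of the list by count, was at 23963 ± 6741 against 45296 ± 6274 (change of −0.95 on the log2 scale, SE 0.21, limma adjusted p = 0.0220). Cd47, Cd44 and Itgb1, surface glycoproteins of adhesion, had log2 fold changes of −1.07, −0.94 and −0.65 (limma adjusted p = 0.00535, 0.0151 and 0.0261).

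Havcr2, which encodes the Lgals9 receptor TIM-3, was at 525 ± 223 against 1060 ± 156 in the WT clones (change of −1.09 on the log2 scale, limma adjusted p = 0.0434), a call lost without WT clone 29, WT clone 36 or R98S clone 35 (limma adjusted p of at most 0.112). The genes that rose were Igf1r, a growth factor receptor (log2 fold change 1.09, limma adjusted p = 0.0119), Tfrc, the transferrin receptor (0.63, limma adjusted p = 0.0299), and Cd63, a tetraspanin (0.56, limma adjusted p = 0.0878). The Cd63 call was lost without WT clone 28, WT clone 29, R98S clone 11 or R98S clone 35 (limma adjusted p = 0.165 to 0.246), and that of Tfrc when WT clone 36 and R98S clone 13 were both left out (limma adjusted p = 0.1002). Mertk, a receptor that binds Lgals3, had a normalized count of at most 4.30 in a WT clone and of 1.88, 192 and 194 across R98S clones 11, 13 and 35, and was not called (limma adjusted p = 0.114).

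Galectins read the glycans that these enzymes build. Of 12 genes of N-glycan branching and extension 11 were tested. Beside 10.7% called higher and 13.1% lower over all tested genes, none was called higher and 2 lower (median log2 fold change −0.23). These were Slc35a3, a sugar nucleotide transporter gene (log2 fold change −0.47, limma adjusted p = 0.0380), and B4galt1, which adds the galactose that galectins bind (log2 fold change −0.40, limma adjusted p = 0.0890). The Slc35a3 call was lost without WT clone 28 or WT clone 29 (limma adjusted p = 0.127 to 0.139), and that of B4galt1 without WT clone 28, WT clone 29, R98S clone 11 or R98S clone 13 (limma adjusted p = 0.118 to 0.263). Man2a2, the most abundant of the list, was not called (log2 fold change 0.18, limma adjusted p = 0.347).

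Of 5 genes of O-glycan cores 4 were tested and 2 were called, both lower (median log2 fold change −0.49), beside 13.1% of all tested genes. Gcnt1, which builds the branched core that Lgals1 binds on CD45, was at 4787 ± 732 against 10516 ± 1443 in the WT clones (SD, n = 3 each; change of −1.14 on the log2 scale, SE 0.15, limma adjusted p = 0.00350). Galnt1, which starts O-glycans, fell by 0.50 on the log2 scale (limma adjusted p = 0.0294) but did not pass without WT clone 28 (limma adjusted p = 0.108). Sialic acid can mask galactose, and of 10 genes that add, remove or supply it 8 were tested. Of these, 1 was called higher and 1 lower (median log2 fold change −0.13), beside 10.7% and 13.1% of all tested genes. The untested genes St6gal1 and St3gal6 had at most 1 and 2 reads in any library. Masking itself was not measured. St3gal4, a sialyltransferase, fell by 0.86 on the log2 scale (limma adjusted p = 0.0196), and Slc35a1, the sialic acid transporter, rose by 0.49 (limma adjusted p = 0.0658), a call lost without WT clone 28, WT clone 36, R98S clone 11 or R98S clone 35 (limma adjusted p = 0.141 to 0.186).

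Galectins also mark damaged lysosomes and vesicles for repair or autophagy. Of 13 genes of that response 12 were tested. Beside 10.7% called higher and 13.1% lower over all tested genes, none was called higher and 4 lower (median log2 fold change −0.29). Trim16, a partner of Lgals3, fell by 1.19 on the log2 scale (limma adjusted p = 0.0292), a call lost without R98S clone 11 (limma adjusted p = 0.103). Prkaa1, a subunit of the energy-sensing kinase AMPK, fell by 0.43 (limma adjusted p = 0.0446), a call lost without WT clone 28, WT clone 29 or R98S clone 11 (limma adjusted p = 0.112 to 0.155). Calcoco1, an autophagy receptor gene, and Tfe3, a lysosomal transcription factor gene, had log2 fold changes of −0.70 and −0.51 (limma adjusted p = 0.0646 and 0.0904), and neither call held throughout. That of Calcoco1 was lost without any one clone except R98S clone 13 and that of Tfe3 without any one clone except WT clone 36 (limma adjusted p = 0.116 to 0.265). Tax1bp1, the most abundant of the list, was not called (log2 fold change −0.29, limma adjusted p = 0.283).

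**Figure D4:**
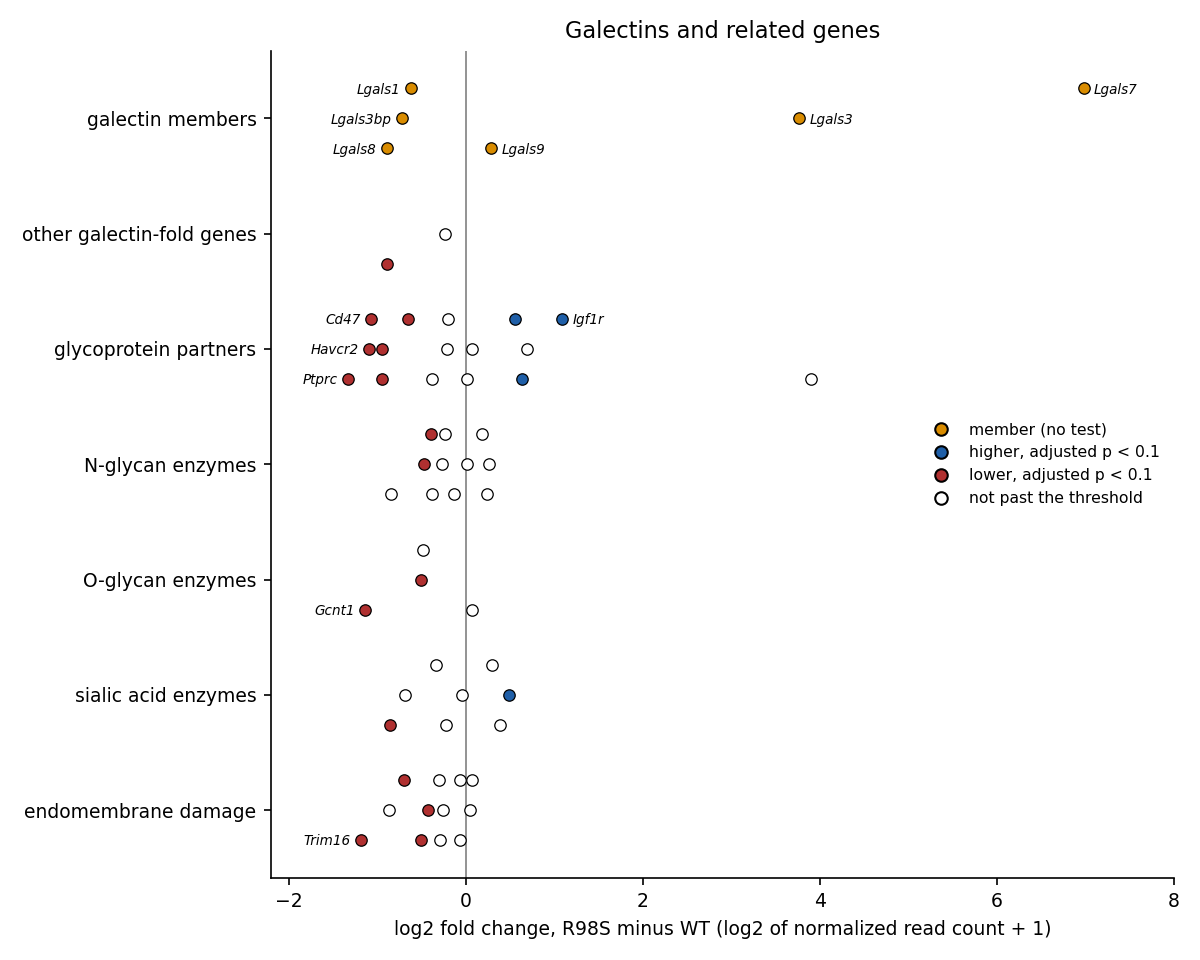
Log2 fold change between R98S and WT clones (horizontal axis, log2 of normalized read count + 1) of the members and of the tested genes in 6 lists. Orange points are members, shown without a test result. Blue and red points passed an adjusted p of 0.1, and white points did not, including Mertk at 3.90. Among the genes of the lists, 4 were called higher and 16 lower, beside 10.7% and 13.1% of all tested genes.

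In the lists of N-glycan, O-glycan and endomembrane genes, with no limma call in the higher direction, 0 genes were higher at an unadjusted p under 0.05 and 0 were called higher by edgeR or DESeq2. Over all 6 lists 53 genes were tested and 20 were called (37.7%, beside 23.9% of all tested genes). Of these 20 genes, 4 were higher and 16 lower, while among all tested genes 10.7% were called higher and 13.1% lower. The median log2 fold change was −0.26 in the lists, beside −0.01 for all tested genes. The lists were chosen with earlier results of these data known, so nothing is read from these shares. Of the 20 calls, 9 held in every fit without 1 clone, and the number called was 11 without WT clone 28, 12 without WT clone 29 and 13 without R98S clone 11. Over all genes, the number called went from 2755 to 1327, 1464 and 1578 in the same fits.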

How the data were processed

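Polyadenylated RNA of 6 cultures was made into stranded libraries and sequenced on an Illumina instrument. The authors removed ribosomal and transfer RNA reads with Bowtie2, aligned the rest to mm10 with TopHat, filtered on mapping quality, counted reads on exons and divided them by DESeq2 size factors. The deposited signal is thus a normalized count per gene symbol. Every value above 0 was a whole multiple of 1 step per library (tolerance 0.001 reads), which gave the reads back. The step of WT clone 36 was 1.0008, so near 1 that this check says little there. Log2(normalized count + 1) of genes with a mean of at least 10 was tested with limma 3.58.1 in R 4.3.3 (intensity trend, two-sided, Benjamini-Hochberg, threshold 0.1). Precision was set by the spread of 3 clones per group, and floors of 3 reads cover counting error only. Alternatives were pseudocounts of 0.5 and 5, no filter or a minimum of 50, other scalings, no trend, a threshold of 0.05, each clone left out, edgeR 4.0.16 and DESeq2 1.42.0 on recovered reads, and, added after seeing the data, WT clone 36 and R98S clone 13 both left out. Genes named are all members, Rpl10, in each list the called genes and the most abundant, and the 5 profiles most like Lgals7 and Lgals3; markers, called neighbours, Lgals4, Mertk and genes that overlap or copy a member are named besides, after their values were seen. Members and lists were chosen with earlier results of these data known.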

Additional observations from a re-analysis of the deposited data

How the results depend on the processing

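The log2 fold changes of the 5 tested members kept their signs under all alternatives, from −0.88 to −0.49 for Lgals1, 3.52 to 4.05 for Lgals3, −1.10 to −0.73 for Lgals8 and 0.15 to 0.47 for Lgals9. Lgals3bp, which gave a value only with no filter or without WT clone 36, R98S clone 13 (alone or together) or R98S clone 35, lay between −0.99 and −0.48. That of Lgals7, 6.98 as reported, was 7.73 with a pseudocount of 0.5, 5.06 with one of 5, 7.83 with edgeR and 8.07 with DESeq2, because the WT clones held at most 2 reads. The number of genes called was 2755, or 1722 at an adjusted p under 0.05, and 1327 to 3219 without 1 clone (1327 without WT clone 28, 1464 without WT clone 29 and 1578 without R98S clone 11). The number of related genes called, 20 as reported, was 11 to 26 without 1 clone. For the 20 called related genes with Man2a2 and Tax1bp1, 302 of 352 alternative values stayed on the same side of the threshold, 48 lost it, 2 gained it and 0 changed sign. No paired analysis was possible because the WT and R98S clones carry different numbers. With 3 clones per group, small differences such as that of Lgals9 could not be resolved, and depth limited only Lgals7 in WT clones and Lgals3bp.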

Other observations

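Other marker genes separated the genotypes as well. Csf2rb2, which encodes a beta chain of the interleukin-3 receptor, was higher in R98S clones (log2 fold change 0.62, limma adjusted p = 0.0178), with a mean normalized count of 41054 ± 1541 in WT and 63212 ± 6523 in R98S clones (SD, n = 3 each). On the same list of 5 progenitor markers, Csf2rb was also called higher (log2 fold change 0.53, limma adjusted p = 0.0509). That call was lost without WT clone 28, WT clone 36 or R98S clone 11 (limma adjusted p = 0.101 to 0.193). Il3ra, which encodes the alpha chain, was not called (log2 fold change −0.18, limma adjusted p = 0.432), and Kit and Cd34 had at most 1 read in any library. Cd3d, a gene of the T cell receptor complex, rose from 13.3 ± 4.44 to 63.8 ± 21.5 (limma adjusted p = 0.0112), while Cd3e, Cd4 and Cd8a had at most 3, 2 and 6 reads in any library. Of the 6 markers of mast cells and basophils 4 were tested and 0 were called by limma, edgeR or DESeq2, with 0 at an unadjusted p under 0.05.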
